A study of Mus musculus with 12 samples.

Results

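The nuclear genes for oxidative phosphorylation subunits were followed from bone marrow monocytes through the first days of culture towards dendritic cells, in wild-type (WT) mice and in mice lacking the nuclear receptor NR4A3 (KO). They were the autosomal protein-coding genes whose GENCODE symbol begins with Nduf, Cox4 to Cox8, Uqcr or Atp5. Of 47643 gene identifiers in the deposited count files, 47224 had a symbol, 100 symbols matched those patterns, and 86 genes were kept after 11 genes that do not code for protein and 3 X-linked genes (Ndufa1, Ndufb11 and Cox7b) were set aside. By role the 86 comprised 34 subunits of complex I, 8 complex I assembly factors (the Ndufaf genes), 8 subunits of complex III, 18 of complex IV, 16 of complex V, and 2 other genes (Atp5s and Cox7a2l). The label therefore held for 76 of the 86; the remaining 10 carry the same prefixes but are assembly factors or other associated proteins. The filter on low counts was passed by 80 members. The 6 others were Cox4i2 with 18 reads over all 12 libraries, Cox6a2 with 7, and Cox7b2, Cox8b, Cox8c and Ndufa4l2 with 0.

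Oxidative phosphorylation takes place at the inner mitochondrial membrane. Complexes I, III and IV pass electrons from NADH to oxygen and pump protons, and complex V, the ATP synthase, uses the returning protons to make ATP. Most subunits are encoded in the nucleus, translated in the cytosol and imported, while a small core set is encoded by mitochondrial DNA, so both genomes supply every one of these complexes. Monocyte-derived dendritic cells arise when monocytes are cultured with the cytokines GM-CSF and interleukin 4, a change in which the use of mitochondrial respiration and of glycolysis is known to shift.

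Poly(A) RNA of 6 groups was sequenced with strand kept, with 2 libraries per group, on a C57BL/6 background. The groups were undifferentiated WT and Nr4a3 KO monocytes from bone marrow, and WT and Nr4a3 KO cells after 1 day or 2 days with GM-CSF and IL4. All groups shared the strain and the tissue of origin, and by the labels they differed in Nr4a3 genotype and culture. The sources used here name neither the Nr4a3 allele nor the number of mice per library. Each pair of libraries came from independent experiments. In the main fit, p-values rest on a spread within groups estimated over all 6 groups, without a term for the experiment. A test at day 2 therefore also carries the spread of the earlier stages. Dates in the file names place replicate 1 of monocytes and of day 1 in the same experiment, and likewise replicate 2, while both day 2 experiments were others; for day 1 replicate 2 those names give a shorter time than the 1 day of the labels. Stage and experiment therefore cannot be told apart for day 2 against the earlier stages.

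Libraries held 5905266 to 18447405 reads on genes. Nr4a3 itself had 11194 and 10741 reads in the WT day 2 libraries against 234 and 236 in KO; at day 1 it had 200 and 128 in WT against 76 and 0 in KO, and monocytes held 0 to 13. Dendritic cell markers (Itgax, H2-Ab1, H2-Eb1, Cd74, Cd209a, Ccl22, Ciita) summed to 189 to 244 CPM (read counts scaled to library size) in monocytes, 7784 to 11704 at day 1 and 29367 to 32436 at day 2. Classical monocyte markers summed to 23036 to 53264, 6379 to 14713 and 1156 to 7156. Lyz2 made up most of that sum in monocytes, at 15090 to 43582 CPM. Single markers did not all follow their sums. Ccr2 (1441 to 2768 CPM in monocytes, 1232 to 2492 at day 1) and Csf1r (853 to 1464, 834 to 1592) overlapped between those stages. Cd14 was lowest at day 1. Between day 1 and day 2, overlap was seen for Cd209a (75.5 to 122, then 7.13 to 137) and Itgax (602 to 1642, then 987 to 1852). H2-Ab1 (1460 to 2587, then 2303 to 4969) and Ciita (222 to 412, then 258 to 588) overlapped too. Only Cd74, H2-Eb1 and Ccl22 were higher in every day 2 library than in every day 1 library. Neutrophil markers summed to 968 to 3890, 559 to 1762 and 239 to 1239 CPM, erythroid markers to 31.8 to 174, 0.055 to 0.571 and 17.5 to 110, and macrophage markers to 225 to 354, 231 to 659 and 123 to 358; T, NK and B cell markers stayed at or below 16.1 CPM per list, and no marker of these lists was at 0 in all 12 libraries. A pair of libraries stood apart. WT monocytes replicate 2 had 100899 CPM in cytosolic ribosomal protein genes against 41570 to 52951 in the other monocytes. The library labelled KO day 1 replicate 1 had Nr4a3 reads, 602 CPM of Itgax against 1087 to 1642 in the other day 1 libraries, and 298 CPM of Ly6c2 against 28.9 to 60.5. Other dendritic cell markers went the other way. H2-Ab1 (2587 CPM), H2-Eb1 (1621) and Cd74 (6366) were higher there than in any other day 1 library, as was the dendritic cell marker sum. The female transcript Xist was at 885 and 794 CPM in replicate 1 of WT and KO day 2 and at or below 1.01 elsewhere. Results that rest on these libraries are given with and without the pair, and the part that any of these differences plays in a result was not tested.

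Sequences upstream of the RefSeq starts of 4 members are shown for orientation. Levels of Ndufaf4, Atp5g1 and Atp5b were highest at day 1, and that of Cox7a2l was lowest there. Members of these complexes are known to share promoter elements. The sequences come from RefSeq promoters on GRCm38.p6, each 120 bases, 5′ to 3′ on the gene's own strand. Each ends at or before the RefSeq start, outside every annotated exon of its own gene. The Cox7a2l stretch lies before its RefSeq start but inside the span that GENCODE gives the gene. Capitals mark matches on either strand to the palindromic NRF1 consensus (the run in Ndufaf4), the ETS-family site CCGGAAG, the YY1 site AAGATGGC, CCAAT or TATAAA.
Ndufaf4 (chr4:24897963-24898082, plus strand): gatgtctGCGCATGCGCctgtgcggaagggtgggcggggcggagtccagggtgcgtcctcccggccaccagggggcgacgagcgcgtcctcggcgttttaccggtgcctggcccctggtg
Atp5g1 (chr11:96075671-96075790, minus strand): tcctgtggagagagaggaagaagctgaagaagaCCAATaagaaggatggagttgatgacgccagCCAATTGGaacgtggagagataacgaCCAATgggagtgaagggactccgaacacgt
Atp5b (chr10:128083153-128083272, plus strand): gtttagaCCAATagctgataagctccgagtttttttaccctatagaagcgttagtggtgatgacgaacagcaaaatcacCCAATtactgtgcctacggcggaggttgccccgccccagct
Cox7a2l (chr17:83514334-83514453, minus strand): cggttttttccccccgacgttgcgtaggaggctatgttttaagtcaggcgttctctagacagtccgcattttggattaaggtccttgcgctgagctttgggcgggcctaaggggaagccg
Ndufaf4 carried the NRF1 letters, Atp5g1 and Atp5b carried CCAAT several times (overlapping on both strands in the longest capital run of Atp5g1), and the Cox7a2l stretch held none of the 5 motifs. RefSeq gave 75 promoters for 70 of the 86 members, and over windows of 300 bases the NRF1 site was found in 7 of the 75 (9.33%, against 1.33% of all 21262 promoters). The YY1 site was found in 11 (14.7% against 3.05%) and the ETS site in 16 (21.3% against 11.6%). CCAAT was in 31 (41.3% against 38.2%) and TATAAA in 8 (10.7% against 12.6%). These matches are descriptions of letters, and binding was not measured.

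Levels across the machinery were compared per kilobase of the main transcript, as the mean CPM per kb over the 12 libraries. Median levels were 86.7 CPM per kb for complex I, 182 for complex III, 279 for the 12 tested subunits of complex IV and 282 for complex V, against 11.3 for the assembly factors. Atp5b, the catalytic beta subunit of the ATP synthase (GRCm38 chr10:128083273-128090391, plus strand), was the most abundant member at 670.4 CPM per kb, followed by Cox4i1, a structural subunit of cytochrome c oxidase, at 577. The ATP synthase alpha subunit Atp5a1 was at 432, the small complex IV subunits Cox8a and Cox6b1 at 413 and 412, and Uqcrh and Uqcr10, small subunits of complex III, at 377 and 259. Within complex I, Ndufa6 at 223 and Ndufb9 at 169 led, both accessory subunits. At the lower end were Ndufaf4 at 6.87, Cox7a1 at 3.01 and Atp5s at 1.85. In the libraries, as CPM, Uqcrh ranged from 133 to 401, Uqcr10 from 58.2 to 225, Ndufa6 from 85.9 to 230.1 and Ndufb9 from 73.8 to 211.

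The members together held 0.785% to 1.69% of the gene reads of a library. In replicates 1 and 2 their summed level was 7792 and 15801 CPM in WT monocytes, 12247 and 16760 at WT day 1, and 9321 and 8907 at WT day 2. The KO sums were 8464 and 11367 CPM in monocytes, 9824 and 16918 at day 1, and 9628 and 9228 at day 2. All 4 day 1 libraries lay above all 4 day 2 libraries, whereas monocytes spanned nearly the whole range of both. The pair that stood apart held the highest sum of the monocytes (WT replicate 2) and the lowest at day 1 (KO replicate 1). Leaving out the pair therefore raises the members at day 1 relative to the other stages, and is no independent check of such changes. Replicate 2 exceeded replicate 1 widely in the earlier stages: the median member was higher by 1.12 on the log2 scale in WT monocytes (79 of 80 members), by 0.46 in KO monocytes (75), by 0.67 at WT day 1 (74) and by 0.87 at KO day 1 (76). At day 2 the same difference was -0.03 in WT and 0.00 in KO. Cytosolic ribosomal protein genes moved with it, with medians of 1.35, 0.31, 0.74, 0.93, 0.08 and 0.02 in the same order. In bulk RNA, fewer cells of a type and less RNA per cell cannot be told apart.

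**Figure D1:**
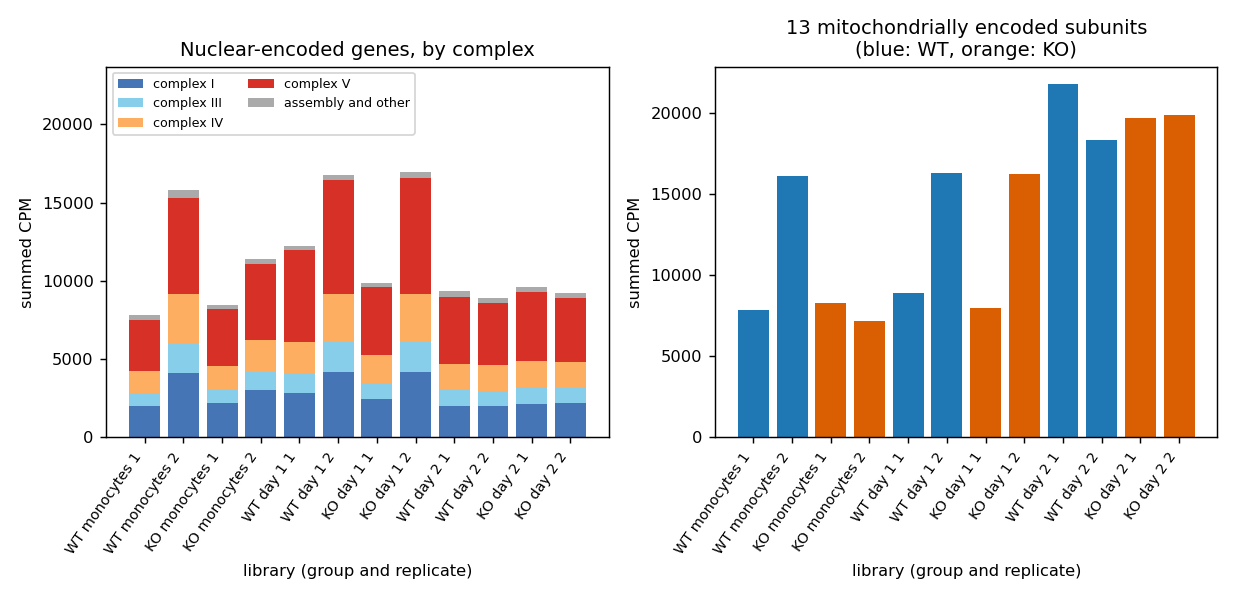
Summed CPM (vertical axes, from 0) in each of the 12 libraries, for the members stacked by complex on the left and for the 13 mitochondrially encoded subunits on the right. The members sum to 9824 to 16918 CPM in the day 1 libraries and to 8907 to 9628 at day 2, where the mitochondrially encoded sum is highest, at 18312 to 21757.

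**Figure D2:**
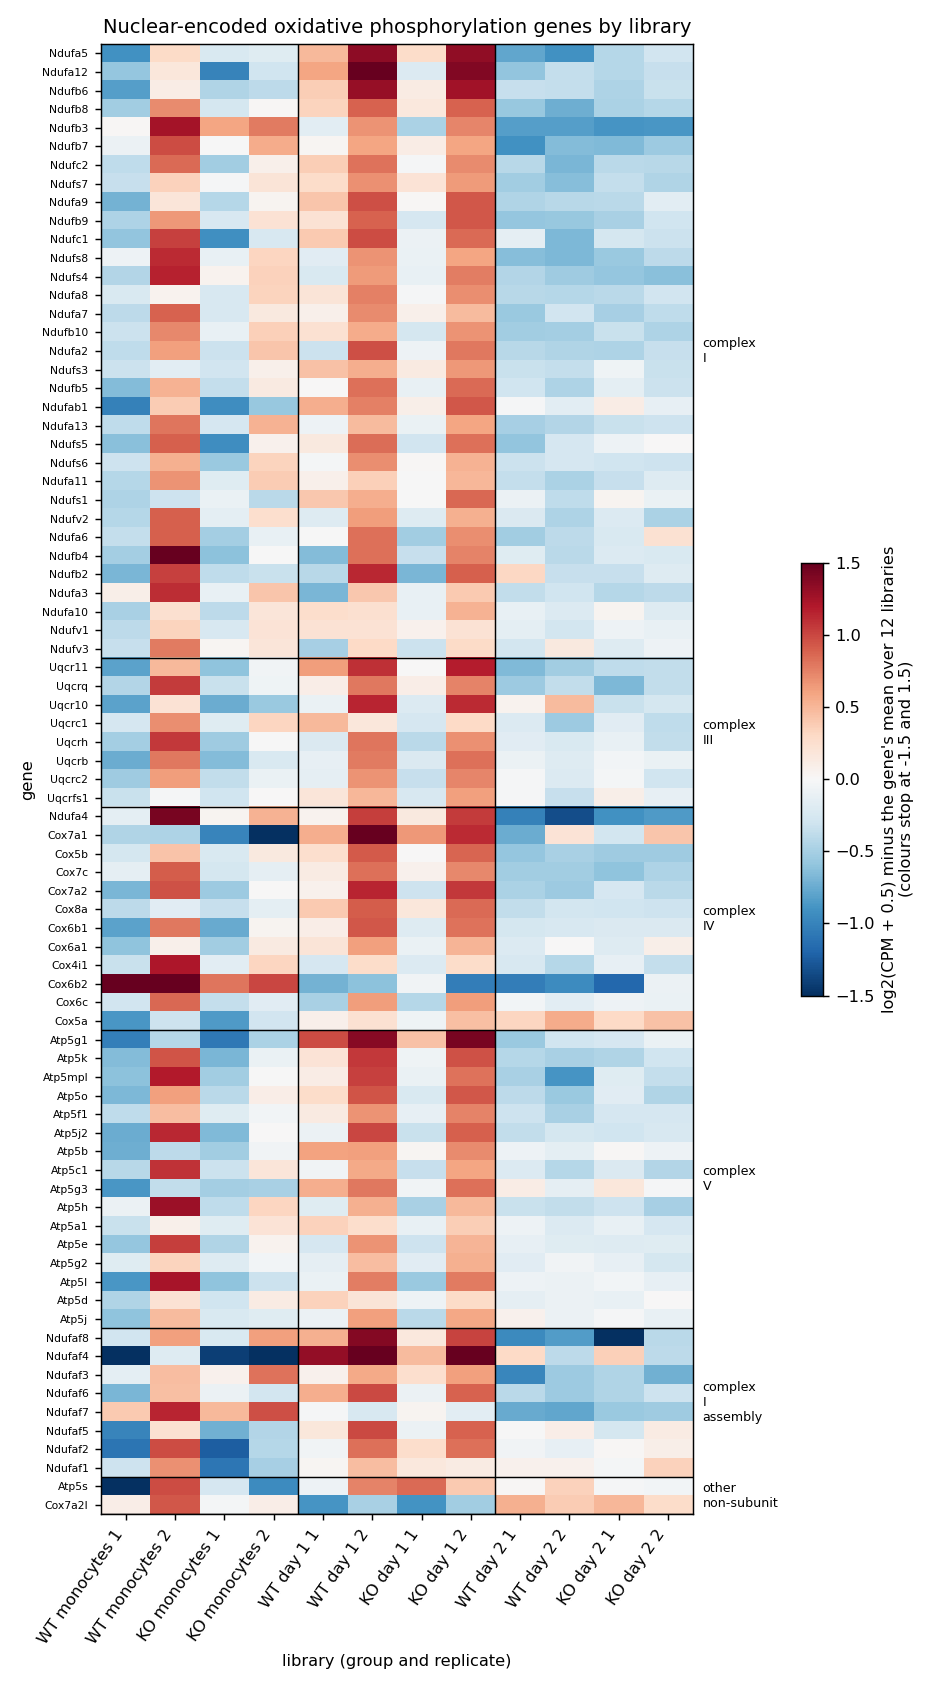
Log2(CPM + 0.5) of 79 tested members minus each one's mean over the 12 libraries, with members in rows by role, libraries in columns and red above the mean. Most complex I rows are highest in WT monocytes replicate 2 and replicate 2 of day 1, and below their mean in all day 2 libraries.

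From monocytes to day 1 a small group of members rose in WT cells, an assembly factor, 3 ATP synthase subunits and a complex IV subunit, and 3 others fell. With edgeR's quasi-likelihood test over all 14034 genes (adjusted p under 0.05 throughout), 5 of 80 members rose (11.4% of all genes rose) and 3 fell (10.1% of all genes fell). The median member difference was 0.23 on the log2 scale, against 0.06 over all genes, and 58 of 80 members were positive. In KO cells, compared with their own monocytes, 2 members rose (7.7% of all genes) and 0 fell (6.14%), with a median of 0.51 against 0.11. DESeq2 called 7 higher and 3 lower in WT (14.7% and 14.3% of all genes), and 5 higher and 0 lower in KO (11.3% and 10.1%). At an unadjusted p under 0.05, 15 WT and 17 KO members passed, against 35.8% and 29.9% of all genes.

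Ndufaf4, which helps to build complex I (GRCm38 chr4:24898083-24905001, plus strand), had the largest WT rise among the called members. Its WT values in replicates 1 and 2 were 4.98 and 15.8 CPM in monocytes, 45.8 and 61.3 at day 1 and 22.3 and 13.7 at day 2. KO values were 6.50 and 4.89 CPM in monocytes, 25.4 and 61.9 at day 1 and 23.3 and 13.7 at day 2. Every day 1 library was above every monocyte library. The log2 fold change from monocytes to day 1 was 2.37 ± 0.59 (SE) in WT (adjusted p = 0.0173, edgeR) and 2.94 ± 0.60 in KO (adjusted p = 0.0104).

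Atp5g1, Atp5g2 and Atp5g3 encode the same mature subunit c, the ring of the ATP synthase that protons turn, with different import sequences. Atp5g1 (GRCm38 chr11:96068852-96075670, minus strand) stood at 38.0 and 57.5 CPM in monocytes, 153 and 200.2 at day 1 and 52.6 and 63.2 at day 2 in WT. The KO libraries held 36.8 and 55.5 CPM in monocytes, 106 and 209 at day 1 and 64.9 and 72.4 at day 2. Every day 1 value lay above all monocyte and day 2 values, and the fold changes were 1.89 ± 0.38 in WT (adjusted p = 0.00663, edgeR) and 1.77 ± 0.38 in KO (adjusted p = 0.0121). Transcripts of other annotated genes share 66.0% of the 50-base words of the Atp5g1 transcript, so reads it lost to multiple mapping make its level uncertain. Atp5g3 (GRCm38 chr2:73908447-73911326, minus strand) stood at 145 and 206 CPM in monocytes, 390.0 and 461 at day 1 and 288 and 243 at day 2 in WT. KO cells had 187 and 191 CPM in monocytes, 258 and 474 at day 1 and 299.8 and 264 at day 2. Day 1 and day 2 libraries were all above the monocytes, and the WT rise to day 1 was 1.28 ± 0.33 (adjusted p = 0.0203, edgeR); the KO value was 0.95 ± 0.33 (adjusted p = 0.0783).

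Atp5b, which carries the catalytic sites of the ATP synthase, rose in WT. Its WT values were 739 and 937 CPM in monocytes, 1868 and 1877 at day 1 and 1168 and 1107 at day 2. In KO the values were 852 and 1186 CPM in monocytes, 1256 and 2013 at day 1 and 1243 and 1167 at day 2, and the library labelled KO day 1 replicate 1 was the day 1 library nearest to the monocytes. All day 1 libraries exceeded all monocyte libraries. The fold change was 1.16 ± 0.32 in WT (adjusted p = 0.0269, edgeR) and 0.68 ± 0.32 in KO (adjusted p = 0.18). Its partner Atp5a1, the alpha subunit, did not pass in either genotype, with WT values of 837 and 1111 CPM in monocytes, 1335 and 1267 at day 1 and 1000.0 and 915 at day 2. The KO values of Atp5a1 were 927 and 1211 CPM in monocytes, 975 and 1364 at day 1 and 971 and 886 at day 2.

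Cox8a, the ubiquitous form of a small complex IV subunit (GRCm38 chr19:7215153-7217616, minus strand), rose in WT by 0.96 ± 0.30 (adjusted p = 0.0438, edgeR). Its WT values were 163 and 191 CPM in monocytes, 282 and 406 at day 1 and 166 and 177 at day 2. Its KO values were 169 and 195 CPM in monocytes, 242 and 386 at day 1 and 175 and 173 at day 2, a difference to day 1 of 0.79 ± 0.30 that missed the threshold (adjusted p = 0.106). The day 1 libraries of both genotypes lay above all monocyte libraries.

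The members that fell by day 1 in WT were Cox6b2, Cox7a2l and Ndufaf7. Cox6b2, the testis form of a complex IV subunit (GRCm38 chr7:4751792-4753094, minus strand), stood at 11.0 and 13.9 CPM in monocytes, 1.57 and 1.71 at day 1 and 1.15 and 1.26 at day 2 in WT. In the KO libraries it measured 5.43 and 6.31 CPM in monocytes, 2.77 and 1.15 at day 1 and 1.00 and 2.70 at day 2. Monocytes of both genotypes were above all cultured cells, at few reads, and the WT change was -2.91 ± 0.65 (adjusted p = 0.0112, edgeR) against -1.59 ± 0.63 in KO (adjusted p = 0.118). Cox7a2l belongs to the Cox7a family (GRCm38 chr17:83501918-83517330, minus strand). It stood at 189 and 339 CPM in monocytes, 95.2 and 126 at day 1 and 257 and 231 at day 2 in WT. In KO it stood at 173 and 189 CPM in monocytes, 94.7 and 122 at day 1 and 249 and 215 at day 2. Each day 1 library lay below every monocyte and day 2 library, with changes to day 1 of -1.26 ± 0.32 in WT (adjusted p = 0.0188, edgeR) and -0.74 ± 0.32 in KO (adjusted p = 0.147). Ndufaf7, a methyltransferase that acts in complex I assembly (GRCm38 chr17:78937136-78948052, plus strand), stood at 33.4 and 56.6 CPM in monocytes, 25.1 and 21.3 at day 1 and 14.8 and 14.5 at day 2 in WT. The KO libraries held 35.8 and 50.2 CPM in monocytes, 26.1 and 22.7 at day 1 and 17.0 and 17.4 at day 2. Its day 1 values lay below all monocyte values, with -0.95 ± 0.31 in WT (adjusted p = 0.0499, edgeR) and -0.82 ± 0.31 in KO (adjusted p = 0.104).

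**Figure D3:**
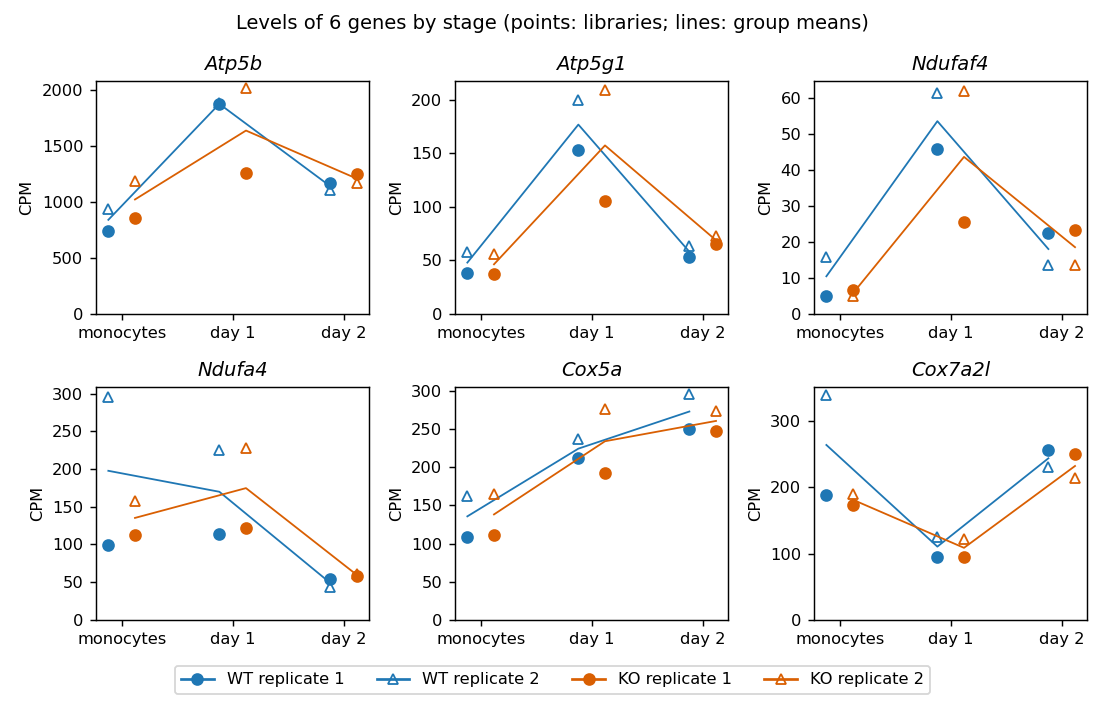
CPM (vertical axes, from 0) of 6 members by stage, with a point per library, filled for replicate 1 and open for replicate 2, and lines through the group means. Atp5b, Atp5g1 and Ndufaf4 are highest at day 1 in both genotypes, Cox7a2l is lowest there, Cox5a is lowest in monocytes and Ndufa4 lowest at day 2.

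Averaging both genotypes, a contrast chosen after the data were seen, used 4 libraries per stage. From monocytes to day 1, 17 members rose (19.4% of all genes) and 3 fell (16.4%), with a median of 0.40 against 0.11. Complex I supplied 7 of the rises, complex III 2, complex IV 3, complex V 3 and the assembly factors 2. Beside Ndufaf4 at 2.66 ± 0.42 and Atp5g1 at 1.83 ± 0.27, the largest rises among members with at least 5 CPM were the complex I accessory subunits Ndufa12 at 1.41 ± 0.37 (adjusted p = 0.0144, edgeR), Ndufb6 at 1.22 ± 0.31 and Ndufa5 at 1.15 ± 0.32. Ndufa12 stood at 29.7 and 50.4 CPM in monocytes, 67.4 and 141 at day 1 and 29.6 and 34.9 at day 2 in WT. KO cells had 22.0 and 36.4 CPM in monocytes, 38.7 and 118 at day 1 and 33.2 and 35.0 at day 2. Ndufb6 measured 30.0 and 57.7 CPM in monocytes, 69.5 and 133 at day 1 and 42.0 and 41.5 at day 2 in WT. KO values were 38.9 and 40.6 CPM in monocytes, 58.3 and 129 at day 1 and 38.7 and 42.3 at day 2. In another annotated gene 26.2% of the 50-base words of Ndufa12 occur as well. For both genes replicate 2 was above replicate 1 at day 1 in each genotype; Ndufa12 overlapped between the stages while Ndufb6 did not. Every day 1 library was above every monocyte library for 10 of 80 members (12.5%, against 19.7% of all genes): Ndufs1, Ndufs3, Ndufb6, Ndufaf4, Cox7a1, Cox5a, Cox8a, Atp5b, Atp5g1 and Atp5g3. The reverse held for Cox6b2, Cox7a2l and Ndufaf7 (16% of all genes).

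Of the WT monocyte libraries, dropping replicate 1 left 6 WT calls at day 1 and dropping replicate 2 gave 11. Dropping a WT day 1 library left 2 calls for replicate 1 and 1 for replicate 2, the latter Atp5g1. Atp5b missed the threshold without WT monocytes replicate 1 (edgeR adjusted p = 0.074) or either WT day 1 library, and Cox7a2l without either WT day 1 library or without WT monocytes replicate 2 (-0.81, edgeR adjusted p = 0.072). Cox8a missed it in 9 of 13 alternatives, each single WT library left out among them, and Ndufaf7 in 8 of 13. Ndufaf7 was at -0.56 (edgeR adjusted p = 0.228) without WT monocytes replicate 2. Atp5g3 missed it without WT monocytes replicate 1 or either WT day 1 library, Cox6b2 without either WT day 1 library, and Ndufaf4 without WT day 1 replicate 2. The KO total of 2 was 0 without KO monocytes replicate 1 or KO day 1 replicate 2, 1 without KO monocytes replicate 2 and 8 without the library labelled KO day 1 replicate 1. With the experiment as a replicate block, 15 members rose and 4 fell in WT (15.2% and 13.3% of all genes), and 14 rose and 1 fell in KO (11.2% and 10.1%). Without both libraries that stood apart, 19 rose and 1 fell in WT (9.08% and 11.0%) and 20 and 1 in KO (11.6% and 10.6%). That pair held the highest member sum of the monocytes and the lowest at day 1, so leaving it out raises this change in any case. In the averaged contrast the block gave 30 and 3 (22.9% and 19.2%), and leaving out the pair gave 48 and 3 (19.5% and 19.0%) with a median of 0.85. Its total of 20 fell to 10 without WT day 1 replicate 2, KO monocytes replicate 1 or KO day 1 replicate 2, and rose to 35 without WT monocytes replicate 2. Counts from fits without 1 library are given without a share of all genes, so they were not set against the background. Within experiments the median WT change to day 1 was 0.62 in the first and 0.03 in the second, and the KO change was 0.24 and 0.73.

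**Figure D4:**
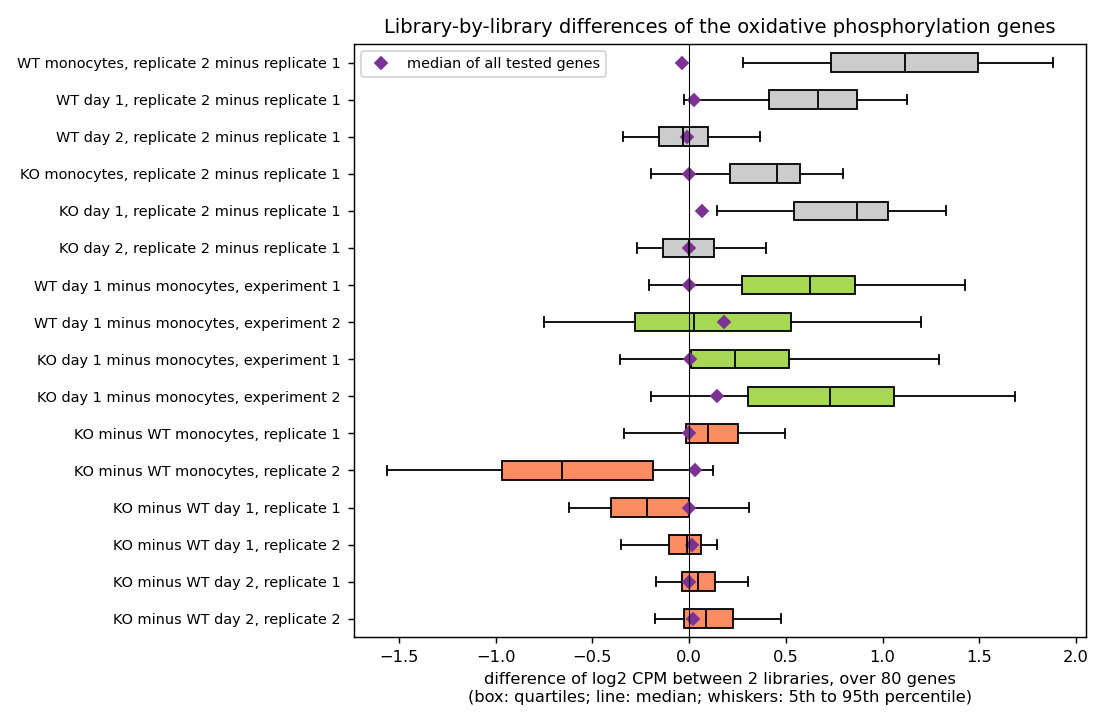
Differences of log2 CPM between pairs of libraries over the 80 tested members (horizontal axis), with boxes for quartiles, a line for the median, whiskers from the 5th to the 95th percentile and a diamond for the median of all tested genes. The replicate difference of WT monocytes has a median of 1.12, above that of each day 1 change within an experiment, at 0.03 to 0.73.

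From day 1 to day 2 nearly all members were lower, and Atp5g1 and Ndufa5 passed the test in WT. The WT median was -0.76 (76 of 80 negative) and the KO median -0.61 (76 negative), against 0.03 over all genes in WT. For WT, 0 members rose (4.67% of all genes) and 2 fell (3.51%), and for KO 0 rose (1.5%) and 0 fell (0.542%) by edgeR. At an unadjusted p under 0.05, 31 WT and 18 KO members passed, against 25.1% and 17.6% of all genes. DESeq2 called 1 higher and 11 lower in WT (9.31% and 6.14% of all genes), and 1 higher and 0 lower in KO (5.13% and 2.40%). The smallest KO adjusted p was 0.110 by edgeR, for Cox7a2l at 1.09 ± 0.32. Every day 1 library lay above every day 2 library, over both genotypes, for 42 of 80 members (52.5%, against 16.4% of all genes): 24 in complex I, 5 assembly factors, 2 in complex III, 6 in complex IV and 5 in complex V. Within WT alone this was so for 61 members (29.5% of all genes) and within KO for 47 (26.3%).

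The WT calls were Atp5g1, with a fold change of -1.61 ± 0.37 (adjusted p = 0.0278, edgeR), and Ndufa5. The KO change of Atp5g1 was -1.20 ± 0.37 (adjusted p = 0.129). Ndufa5, an accessory subunit of the matrix arm of complex I (GRCm38 chr6:24518666-24528013, minus strand), stood at 18.5 and 42.8 CPM in monocytes, 49.2 and 89.4 at day 1 and 20.2 and 18.5 at day 2 in WT. In the KO libraries it measured 29.9 and 30.8 CPM in monocytes, 42.3 and 88.7 at day 1 and 26.0 and 28.5 at day 2. Day 1 exceeded day 2 in every library of Ndufa5, with -1.84 ± 0.47 in WT (adjusted p = 0.0387, edgeR) and -1.26 ± 0.46 in KO (adjusted p = 0.184).

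Averaged over genotypes, again chosen after the data were seen, 21 members fell (9.12% of all genes) and 1 rose (10.1%). Complex I, with 34 of the 80 tested members, supplied 12 of the 21, complex IV 4, the assembly factors 3, and complexes III and V 1 each. The largest falls were Ndufaf8 at -1.77 ± 0.38 (adjusted p = 0.0108, edgeR), Ndufa4 at -1.68 ± 0.37, Ndufa5 at -1.55 ± 0.33, Ndufa12 at -1.45 ± 0.38 and Ndufaf4 at -1.41 ± 0.40. Ndufaf8 assists complex I assembly (GRCm38 chr11:120098928-120100705, plus strand), and its WT values were 12.3 and 23.4 CPM in monocytes, 22.1 and 40.2 at day 1 and 7.59 and 8.22 at day 2. In KO the values were 12.9 and 23.4 CPM in monocytes, 17.0 and 31.0 at day 1 and 4.67 and 11.3 at day 2. Ndufa4, first assigned to complex I and now known as a complex IV subunit (GRCm38 chr6:11900292-11907497, minus strand), stood at 99.3 and 296 CPM in monocytes, 114 and 225 at day 1 and 54.1 and 43.5 at day 2 in WT. In KO it stood at 113 and 157 CPM in monocytes, 121 and 228 at day 1 and 58.2 and 60.5 at day 2. Both were lower in every day 2 library than in every day 1 library. Cox7a2l alone rose, by 1.12 ± 0.22 (adjusted p = 0.00771, edgeR), and its day 2 values stood above all day 1 values.

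Omitting any 1 of the 4 WT libraries compared left 0 WT calls, and with the replicate block 1 member rose and 32 fell in WT (8.22% and 8.13% of all genes), and 1 and 11 in KO (4.05% and 3.45%). Without both libraries that stood apart, 1 rose and 34 fell in WT (8.89% and 8.92%) and 0 and 18 in KO (3.13% and 3.52%). In the averaged contrast the block gave 1 and 45 (14.2% and 14.2%), and leaving out the pair 1 and 55 (13.6% and 14.2%). The pair includes the day 1 library with the lowest member sum, so leaving it out deepens the fall to day 2 in any case. The averaged total of 22 was 6 without WT day 1 replicate 2, WT day 2 replicate 1 or KO day 2 replicate 1, 7 without KO day 1 replicate 2, 8 without KO day 2 replicate 2, 9 without WT day 2 replicate 2, and 30 without the library labelled KO day 1 replicate 1.

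Compared with monocytes, day 2 cells had lower levels of a few complex I and IV genes and a higher level of Cox5a. In WT, 1 member rose (12.7% of all genes) and 5 fell (9.89%), with a median of -0.58 against 0.09. In KO, 0 members rose (9.95%) and 2 fell (7.57%), with a median of -0.08. Without both libraries that stood apart the WT median was 0.13, so its sign turned, and the KO median was -0.15. Unadjusted p-values under 0.05 numbered 12 in WT and 10 in KO, against 37.4% and 32.6% of all genes. DESeq2 called 1 higher and 6 lower in WT (17.2% and 12.7% of all genes) and 2 and 2 in KO (14.8% and 9.78%). Both comparisons with monocytes share those monocyte libraries with the day 1 comparisons.

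Cox5a, a matrix-side subunit of complex IV (GRCm38 chr9:57521274-57532426, plus strand), was the WT gene that rose. Its WT values were 109 and 162 CPM in monocytes, 212 and 237 at day 1 and 251 and 296 at day 2. Its KO values were 111 and 165 CPM in monocytes, 193 and 276 at day 1 and 248 and 274 at day 2. Cultured cells of either stage lay above all monocytes, and day 2 was higher by 1.01 ± 0.31 in WT (adjusted p = 0.0413, edgeR) and 0.92 ± 0.31 in KO (adjusted p = 0.0672).

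Ndufa4 fell by day 2 in WT, with a log2 fold change of -2.02 ± 0.53 (adjusted p = 0.0201, edgeR), whereas the KO value was -1.19 ± 0.51 (adjusted p = 0.138). Its highest monocyte library was WT replicate 2, and all 4 monocyte libraries were above all day 2 libraries. Ndufaf7 fell in both genotypes, at -1.61 ± 0.32 in WT (adjusted p = 0.00503, edgeR) and -1.32 ± 0.31 in KO (adjusted p = 0.0159). So did Ndufb3, an accessory subunit of the membrane arm of complex I (GRCm38 chr1:58586384-58595964, plus strand), at -1.60 ± 0.48 in WT (adjusted p = 0.036, edgeR) and -1.58 ± 0.48 in KO (adjusted p = 0.0446). The values of Ndufb3 were 57.4 and 136 CPM in monocytes, 50.9 and 90.4 at day 1 and 31.9 and 31.7 at day 2 in WT. In KO they were 85.4 and 97.6 CPM in monocytes, 40.5 and 94.2 at day 1 and 30.3 and 30.8 at day 2, so monocytes and day 2 did not overlap. Ndufb7, also of the membrane arm (GRCm38 chr8:83566671-83571626, plus strand), fell in WT, at -1.32 ± 0.38 (adjusted p = 0.0325, edgeR), and its KO value was -0.91 ± 0.38 (adjusted p = 0.124). Its WT values were 89.3 and 188 CPM in monocytes, 97.0 and 143 at day 1 and 50.5 and 60.6 at day 2. KO values were 94.9 and 141 CPM in monocytes, 103 and 144 at day 1 and 60.0 and 65.0 at day 2. Cox6b2 fell in WT, at -3.35 ± 0.68 (adjusted p = 0.00592, edgeR).

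With both genotypes averaged, Ndufaf4 at 1.24 ± 0.41 and Cox5a at 0.96 ± 0.22 rose (21.9% of all genes) and 8 members fell (16.9%): Cox6b2 at -2.49, Ndufa4 at -1.60, Ndufb3 at -1.59, Ndufaf7 at -1.47, Ndufaf8 at -1.17, Ndufb7 at -1.12, Ndufaf3 at -1.04 and Ndufs8 at -0.95. Every monocyte library lay above every day 2 library for 15 members (18.8%, against 19.2% of all genes), a share near the background. The reverse held for 2, Atp5g3 and Cox5a (24.4% of all genes). These counts depended on the monocyte libraries. For fits without 1 library no share of all genes is given, so whether the background moved as well was not tested. Dropping a WT monocyte library changed the WT total of 6 to 27 (replicate 1) or 4 (replicate 2), and dropping either WT day 2 library to 1; the KO total of 2 became 1 without KO monocytes replicate 1 and 0 without any other. Ndufa4 was at -2.02 in WT with all libraries and at -1.05 (edgeR adjusted p = 0.13) without WT monocytes replicate 2. Without that library Ndufb3 was at -0.88 (edgeR adjusted p = 0.211) and Ndufb7 at -0.71 (edgeR adjusted p = 0.192) in WT, and Cox5a missed the threshold in WT without WT monocytes replicate 1 (0.77, edgeR adjusted p = 0.119). In KO, Ndufb3 missed it without any 1 of the 4 libraries compared. The averaged total of 10 became 28 without WT monocytes replicate 1 and 6 without KO monocytes replicate 2. With the replicate block, 1 rose and 17 fell in WT (16.5% and 13.9% of all genes), 2 and 6 in KO (13.5% and 11.5%), and 4 and 24 in the averaged contrast (25.2% and 20.5%). Without both libraries that stood apart the numbers were 2 and 2 (8.52% and 9.43%), 3 and 6 (13.4% and 12.4%), and 5 and 7 (20.2% and 18.9%), and the averaged median went from -0.32 to -0.02.

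In the fit to all 12 libraries no member passed the test between KO and WT by edgeR at any stage. Among monocytes 0 members were higher (0% of all genes) and 0 lower (0%), with the same counts and shares at day 1. The day 2 counts were 0 higher (0%) and 0 lower (0.0998%). DESeq2 called 0 at each stage, and an unadjusted p under 0.05 was reached by 1 member in monocytes (Ndufaf1, -1.08 ± 0.42) and by 0 at days 1 and 2. The median KO minus WT difference was -0.31 in monocytes, with members from -2.21 to 0.30, and -0.10 at day 1, with members from -0.41 to 0.28. Without both libraries that stood apart these medians were 0.37 and 0.24. At day 2, where the median member differed least between replicates, the median was 0.08 and members ran from -0.58 for Uqcr10 to 0.65 for Cox6b2.

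By role at day 2, the ATP synthase genes Atp5b and Atp5g1 differed by 0.08 ± 0.32 and 0.25 ± 0.37, the complex IV subunit Ndufa4 by 0.28 ± 0.51, Cox7a2l of the Cox7a family by -0.07 ± 0.31 and the assembly factor Ndufaf4 by 0.03 ± 0.57 (edgeR adjusted p = 1.00 for each). With the replicate block and the compared groups only, an alternative added after seeing the data, 3 members passed at day 2: Ndufa6 at 0.46 (edgeR adjusted p = 0.0346) and the complex V subunit Atp5mpl at 0.42 (edgeR adjusted p = 0.0445) were higher in KO (6.25% of all genes) and Uqcr10 at -0.57 (edgeR adjusted p = 0.0226) was lower (6.49%). The block over all 12 libraries called 0. At day 2 Ndufa6 stood at 85.9 and 93.7 CPM in WT and 105 and 145 in KO, and Atp5mpl at 68.0 and 51.2 in WT and 83.7 and 74.4 in KO, with no overlap. Uqcr10, of complex III, stood at 58.2 and 118 CPM in monocytes, 95.2 and 225 at day 1 and 105 and 141 at day 2 in WT. The KO libraries held 60.4 and 69.1 CPM in monocytes, 88.5 and 222 at day 1 and 80.4 and 84.4 at day 2. The genotypes overlapped for Uqcr10 in monocytes and at day 1 but not at day 2, where both KO libraries were lower; this gene is named here because it was the lower extreme. Within experiments the median KO minus WT difference was 0.05 and 0.09 at day 2, -0.22 and -0.01 at day 1, and 0.09 and -0.66 in monocytes, where the last used WT monocytes replicate 2. With these few libraries, differences of the size of the standard errors given were not detectable. The test of whether the change from monocytes to day 1 differed between genotypes called 0 members in either direction (0% and 0% of all genes), with 0 at an unadjusted p under 0.05 and a median difference of 0.25 (-0.15 without both libraries that stood apart). For the change to day 2, 0 members were called either way (0% and 0.0285% of all genes), with a median of 0.36 (-0.29 without that pair), so both medians turned sign.

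Alternative isoforms were compared as shares of their family's CPM per kb. The widespread forms Cox4i1, Cox6a1, Cox8a and Ndufa4 held nearly all of their families, Cox4i1 at 99.8% or more in every library. The tissue-restricted forms were at or near 0: Cox4i2 had 0 to 10 reads per library, Cox6a2 0 to 4, and Cox8b, Cox8c and Ndufa4l2 had 0 in every library, which allows up to 0.508 CPM in the library of lowest depth. Cox4i1 stood at 323 and 946 CPM in monocytes, 342 and 494 at day 1 and 344 and 303 at day 2 in WT. KO cells had 363 and 507 CPM in monocytes, 353 and 493 at day 1 and 373 and 318 at day 2, and WT monocytes replicate 2 was the highest library. Cox6a1 ranged from 135 to 314 CPM and Cox6b1 from 135 to 449.9. Cox6b2 made up 9.74% and 4.34% of its family in WT monocytes, 4.91% and 3.34% in KO monocytes, and 0.367% to 1.75% in the cultured libraries.

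Within the Cox7a family the shares at day 1 stood apart from both other stages. Cox7a2l made up 43.5% to 57.2% of the family in monocytes, 19.8% to 33.6% at day 1 and 55.3% to 61.1% at day 2. Cox7a2, the broadly expressed subunit of complex IV, made up 42.3% to 56.3%, 64.7% to 78.6% and 38.6% to 43.7%, and stood at 85.5 and 269 CPM in monocytes, 145 and 305 at day 1 and 99.4 and 94.8 at day 2 in WT. In KO the values were 94.6 and 138 CPM in monocytes, 112 and 289 at day 1 and 116 and 104 at day 2. Cox7a1, the heart and muscle form, stayed at or below 1.68%. The day 1 libraries did not overlap with either other stage in the share of Cox7a2l or Cox7a2. Among the subunit c genes, Atp5g1 held 14.0% to 19.0% in monocytes, 26.9% to 29.0% at day 1 and 14.4% to 20.1% at day 2. Atp5g2 held 26.6% to 30.7%, 13.3% to 18.2% and 18.6% to 22.6%, while Atp5g3 held 52.0% to 59.4%, 54.9% to 59.0% and 59.0% to 66.0%. The day 1 share of Atp5g1 was above, and that of Atp5g2 below, every library of the other stages. In CPM, Atp5g2 stood at 52.3 and 75.0 CPM in monocytes, 54.2 and 81.9 at day 1 and 52.7 and 57.4 at day 2 in WT. In the KO libraries it measured 51.9 and 57.5 CPM in monocytes, 52.9 and 86.1 at day 1 and 54.4 and 49.6 at day 2. All 50-base words of the Atp5g2 transcript occur in another annotated gene as well, so its share is uncertain.

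**Figure D5:**
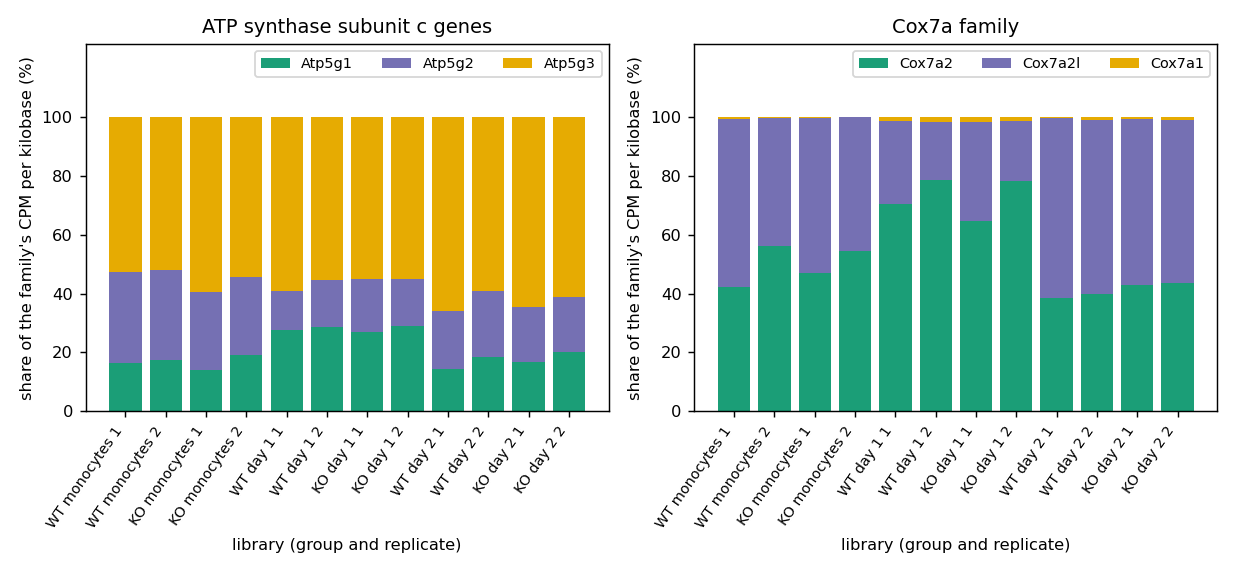
Share of each isoform in its family's CPM per kb, in percent, for each library by stage. At day 1 the Cox7a2l share is 19.8% to 33.6%, below monocytes and day 2, and the Atp5g1 share is 26.9% to 29.0%, above both.

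The subunits encoded by mitochondrial DNA had their highest summed level at day 2, where that of the nuclear members was below all day 1 libraries. Of the 13, 10 passed the filter, and their summed level was 7187 to 16091 CPM in monocytes, 7972 to 16303 at day 1 and 18312 to 21757 at day 2. Divided by the summed nuclear members, this was 0.632 to 1.02, 0.725 to 0.973 and 2.04 to 2.33, so day 2 did not overlap with either earlier stage. The largest part at day 2 was mt-Co1, at 9529 to 11212 CPM against 3221 to 6314 at day 1. For mt-Nd1, mt-Nd2, mt-Nd4, mt-Nd5, mt-Nd6 and mt-Cytb, day 1 and day 2 libraries overlapped. For mt-Co2, mt-Co3 and mt-Atp6 they did not, but levels there were at or below 13.84 CPM in every library. Levels of mt-Nd3, mt-Nd4l and mt-Atp8 were at most 1.15 CPM. In the averaged contrasts 10 of 10 rose from monocytes to day 2 (21.9% of all genes, median 1.34) and 3 rose to day 1 (19.4% of all genes, median 0.69). From day 1 to day 2, 1 rose (10.1% of all genes), mt-Co1 at 1.10 ± 0.32 (edgeR adjusted p = 0.0342). Libraries were made from poly(A) RNA, which captures mitochondrial messages through their short tails, so these are levels of captured RNA. The nuclear subunits outside the autosomal rule and the inhibitor Atpif1 (4 genes) gave 0 rises (19.4% of all genes) and 1 fall (16.4%) at day 1. The fall was that of Ndufb11, at -0.91 ± 0.32 (edgeR adjusted p = 0.0492).

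Other genes of the pathway were counted in the same averaged contrasts, first day 1 against monocytes and then day 2 against day 1. Of all genes, 19.4% rose and 16.4% fell in the first, and 10.1% rose and 9.12% fell in the second. Of 8 genes of complex II and the mobile carriers, 3 rose and 0 fell, among them Sdhd at 1.04 ± 0.24 and Sdhc at 0.73 ± 0.22, membrane anchors of complex II, and then 0 rose and 2 fell, with Cycs, cytochrome c, at -1.70 ± 0.40. Of 36 assembly factors outside the symbol rule, 15 rose and 3 fell, and then 1 rose and 7 fell. Ttc19, a complex III assembly factor, was at 2.51 ± 0.29 and Coa7, for complex IV, at 1.82 ± 0.30. Of 14 tested regulators of mitochondrial biogenesis, 6 rose and 1 fell, led by Myc at 4.04 ± 0.37 and the coactivator Pprc1 at 2.43 ± 0.37; 2 then fell, Myc among them at -2.69 ± 0.34. Of 17 genes of the tricarboxylic acid cycle and pyruvate dehydrogenase, 9 rose and 0 fell, with Idh3a at 1.77 ± 0.22, and then 3 fell. Of 77 tested mitochondrial ribosomal protein genes, 24 rose and 1 fell, and then 0 rose and 31 fell, with medians of 0.42 and -0.79 beside 0.40 and -0.66 for the members. Of 16 glycolysis genes, 5 rose and 2 fell, with the glucose transporter Slc2a1 at 1.68 ± 0.20, and then 5 fell. Of 89 tested cytosolic ribosomal protein genes, 3 rose and 0 fell, and then 1 rose and 9 fell, with medians of 0.03 and -0.60.

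By Pearson correlation of the mean log2 level over the 6 groups with that of the summed members, the other genes most alike were Mettl13 (r = 0.997), Gm10053 (0.996), Dhodh (0.996), Urm1 (0.995) and Mrpl20 (0.995). These are descriptions over 6 points that share libraries. Mettl13, which methylates a translation elongation factor, averaged 16.8, 23.6 and 12.3 CPM in WT monocytes, day 1 and day 2. Dhodh, the pyrimidine synthesis enzyme that feeds electrons into the respiratory chain, averaged 12.3, 19.5 and 8.08 CPM in the same groups. Both were highest at day 1 and lowest at day 2 in each genotype.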

How the data were processed

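The values are raw read counts per gene as deposited, 1 file per library; per the submitters' processing notes the authors trimmed reads with Trimmomatic 0.35 and aligned them with STAR 2.5.1b to GRCm38. The sources used here give no annotation release, and GENCODE M21 supplied symbols and coordinates. Per the labels' protocols a stranded mRNA kit was used with 20 ng of RNA and 16 PCR cycles; the reverse-strand counts in column 4 were used, and reads on the other strand were 3.63% to 5.33% of the total counted on genes. Lines that name no gene (unmapped 2.65% to 7.91% of reads, multimapping 5.29% to 8.94%, no feature 5.24% to 11.2%, ambiguous 1.34% to 1.76%) stayed out of library sizes and tests.

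Samples were grouped by genotype and treatment from the labels. One mean per group was fitted over all 12 libraries with edgeR 4.0.16 in R 4.3.3 (TMM, filterByExpr, robust quasi-likelihood, 6 residual degrees of freedom, common biological coefficient of variation 0.393), and p-values were Benjamini-Hochberg adjusted over 14034 genes at a threshold of 0.05. CPM are TMM-scaled; log2 values between single libraries used a prior count of 2. The members and lists were chosen with earlier results of these data known. Named were the 2 highest subunits per complex, up to 5 members called in each direction per comparison with at least 5 CPM in a compared group, fixed isoforms, and 1 to 2 genes per other list by adjusted p. The stage contrasts of a genotype share libraries.

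Replicate numbers pair the samples: dates in file names mark shared experiments, and deviations from group means correlated between WT and KO (0.236 for monocytes, 0.194 and 0.657 for days 1 and 2). No pair of replicates agreed within sampling noise (smallest chi-square per degree of freedom 34.7). Depth gives a floor of 3 counts of 0.163 to 0.508 CPM, for counting error only. Alternatives were DESeq2 1.42.0, other scalings, no filter, unstranded counts, the block, compared groups only, subunits only, and leaving out libraries. The fits were tested on simulated data. Promoters and motif counts used Python 3.11.15 with pandas 2.3.3 and numpy 2.4.6, and figures matplotlib 3.10.9. Values of 1 tested member are not reported here by name; it stays in the counts.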

Additional observations from a re-analysis of the deposited data

Results flagged for a closer look

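Of 33 members called in at least 1 comparison, 1 moved in opposite directions in the genotypes in every pair of libraries. The share of all genes with this pattern was not counted. Ndufb4, of complex I and not among the 33, had the same pattern. Its within-experiment log2 changes to day 1 were -0.15 and -0.75 in WT and 0.27 and 0.76 in KO. Ndufs8, a core iron-sulfur subunit of complex I, went from 93.0 and 215 CPM in WT monocytes (replicates 1 and 2) to 87.7 and 158 at WT day 1, and from 91.0 and 123 to 92.0 and 148 in KO. On the log2 scale these within-experiment changes were -0.08 and -0.45 in WT and 0.02 and 0.27 in KO, a difference of 0.41 between genotypes on average. The test of that difference by edgeR gave 0.49 ± 0.60 (SE, adjusted p = 1.00), and 0.03 without both libraries that stood apart. The second WT change used WT monocytes replicate 2.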

How the results depend on the processing

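Counts of members called depended strongly on the setting, and no call reversed. They are given in the order day 1 against monocytes, day 2 against monocytes, day 2 against day 1, in WT, then KO, then averaged; the reported totals are 8, 6, 2, then 2, 2, 0, then 20, 10, 22. With the replicate block by experiment they were 19, 18, 33, then 15, 8, 12, then 33, 28, 46. Without the low-count filter the WT day 2 totals were 12 and 21, the KO totals 7, 4 and 8, and the averaged day 2 totals 16 and 35. DESeq2 gave 12 for WT day 2 against day 1 and 5, 4 and 1 in KO. Fits to the compared groups only gave 2, 1 and 20 in WT and 7 for KO day 2 against monocytes. Unstranded counts gave 4 for WT day 2 against day 1 and 4 for KO day 1, and upper-quartile scaling gave 1 for KO day 2 against monocytes. Without both libraries that stood apart the totals were 20 for WT day 1, 35 for WT day 2 against day 1, 21, 9 and 18 in KO, and 51 and 56 for the averaged day 1 against monocytes and day 2 against day 1. The block on compared groups only, added after seeing the data, gave 13 for WT day 1, 4 for KO day 1, and 3 for KO against WT at day 2. Counting subunits only gave 5 for WT day 1, 1 for KO day 1, 1 for KO day 2 against monocytes and 6 for the averaged day 2 against monocytes. Leaving out 1 library gave 1 to 11, 1 to 27 and 0 to 0 in WT, 0 to 8 and 0 to 1 in KO for the contrasts with monocytes, and 10 to 35, 6 to 28 and 6 to 30 averaged. Shares of all genes stand above for the full replicate block, for DESeq2 and for the fits without both libraries that stood apart. For most other settings they are not given. Whether those totals moved with the background of all genes was not tested, and neither was the cause.

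Across the alternatives run, 132 totals stayed within 1.5 times the reported ones and 70 did not; for single members and shares, 789 values kept their side of the threshold, 246 kept the direction without passing, and 7 shares moved with unstranded counts. Atp5g1 and Ndufaf4 at day 1, and Atp5g1, Ndufa4, Ndufa5 and Cox7a2l from day 1 to day 2, passed in all 15 alternatives of the averaged contrasts. Compared-group fits were not run for averaged contrasts or for differences between genotypes in a change. With 2 libraries per group and replicate differences of up to 1.12 (median log2, WT monocytes), small differences between genotypes were not detectable in monocytes and at day 1.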
